A study of Homo sapiens with 6 samples.

Results

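The genes described here encode the proteasome and the enzymes that attach ubiquitin to proteins or take it off. They are the 96 genes, of 5117 in the deposited table, whose symbol marks a proteasome gene (PSMA to PSMG), a ubiquitin-conjugating enzyme (UBE2), a ubiquitin-specific protease (USP), a cullin (CUL) or an F-box protein (FBX), with PSMB8 set aside by the rule that chose them. By role they comprise 11 subunits of the proteasome core particle, 9 of its regulatory particle, 6 activators, inhibitors and assembly chaperones, 19 conjugating enzymes, 6 cullins, 19 F-box proteins and 25 deubiquitinases, and the 1 remaining row is PSMA3-AS1, an antisense RNA that shares the prefix. RNA was sequenced from HMC3, an established human microglial cell line labelled wild type, in 3 libraries of cells given CM with C1s (C1s-CM) and 3 libraries of cells given CM without C1s (control CM, titled FLAG in the labels, which do not say how this control was made). C1s cleaves complement proteins at the start of the classical pathway, and the series title sets the experiment in a study of immunosuppression in mesenchymal glioblastoma and of microglial metabolism. All 6 libraries share the cell line, the genotype and the culture medium, the labels do not spell out CM, and whether the libraries stem from separate cultures is not stated in the sources used here, so the p-values reflect only how these libraries varied, in part perhaps for technical reasons.

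Ubiquitin is attached to a protein by a relay of activating enzymes, conjugating enzymes and ligases, and a chain of ubiquitins can send the protein to the proteasome. The core particle is a barrel of stacked rings of alpha and beta subunits, and 3 of the beta subunits carry the protease sites. The regulatory particle caps the barrel, binds the ubiquitin chain, removes it, and unfolds the protein with a ring of ATPases. Cullins are the scaffolds of the largest family of ubiquitin ligases, F-box proteins bring substrates to 1 class of them, and deubiquitinases cleave ubiquitin from substrates and recycle it. In microglia, proteasome activity also makes peptides for antigen presentation, and exchange of beta subunits for inducible ones (the immunoproteasome) is known from inflammatory signalling.

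Every gene in the deposited table had an adjusted p-value of at most 0.05 in the authors' own comparison of these libraries. The totals of 12730766 to 14961744 counts per library are thus sums over selected genes and give no depth, and genes outside the table were not analysed here. Testing the same counts again adds no independent evidence of a change, and it serves for sizes, errors and comparisons between scalings. Of 17 microglia markers 1 had a row, so the labelled cell type could not be checked from this table. Of 8 markers each of astrocytes, oligodendrocytes and neurons, 1, 1 and 0 had a row. Of 10 markers of fibroblasts and mural cells 4 had a row. Their summed level was 6142 to 6204 CPM (counts scaled to a fixed library total) in C1s-CM and 5707 to 5847 CPM in control CM. Most of that sum was COL1A1, at means of 3813 and 3741 CPM, which was not called in the test described below. With the offsets described below 1 of the 4 was called higher and 1, COL1A1, lower. All 13 mitochondrially encoded genes were higher in C1s-CM, with a summed level of 16795 to 17304 CPM against 14057 to 14265 CPM, and the part of RNA quality in the results below was not tested.

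Levels are given in CPM after scaling by the trimmed mean of M values (TMM), and changes as log2 fold changes of C1s-CM over control CM with their standard error, 3 libraries against 3, from edgeR and its quasi-likelihood test, adjusted by Benjamini-Hochberg over all 5116 genes tested, with a threshold of 0.05. Of the 96 members 43 were called higher in C1s-CM and 52 lower, and 1, PSMF1, was not called. Of all genes tested, 99.4% were called, 50.9% higher and 48.5% lower, so the members' count stands near the background. Under TMM the groups did not overlap in 91 of the 96 members, and in 97.2% of the table. Every gene had passed a test on these same libraries, so separate groups below describe the values and add no evidence of a change. The sign of the change went with the transcript's GC content. All 40 members at or above 50% GC were higher in C1s-CM, and so were 4 of the 56 members under 50%. In the whole table the shares higher in C1s-CM were 98.0% and 6.15%. Changes are therefore also given with offsets, that is, with a smooth curve of log2 CPM on GC content and transcript length removed from each library before the same test. With offsets 26.1% of the table was called, 14.5% higher and 11.6% lower, and of the members 20 were called higher and 8 lower. Why the sign went with GC content was not tested. In bulk RNA fewer cells of a type and less RNA per cell cannot be told apart.

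Of the 11 core particle subunits with a row, 9 rose in C1s-CM and 2 fell, where 50.9% of the whole table was called higher. The median log2 fold change was 0.17 beside 0.08 over the whole table. Subunits without a row were not analysed, and PSMB8 was set aside by the rule. With the table totals as the only scaling 5 were called higher and 2 lower, with a median of 0.044. There 26.1% of the table was called higher. The 9 that rose are the beta subunits with a row, and the 2 that fell are the alpha subunits with a row. With offsets 6 of the 11 were called higher and none lower, with a median of 0.07 beside -0.0024 over the whole table. There 14.5% of the table was called higher and 11.6% lower. The count of 6 fell to 3 without control library 3 and reached 7 without C1s-CM library 1 or with offsets from GC content alone.

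PSMB3, a structural beta subunit at chr17:38752736-38764231 (GRCh38, as all positions here), was the subunit with the highest level per length. It stood at 777, 827 and 821 CPM in the C1s-CM libraries and at 675, 640.1 and 616 CPM in the control libraries. The groups were well apart, and the lowest C1s-CM library exceeded the highest control library by more than the range within either group. Its log2 fold change was 0.33 ± 0.03 (edgeR adjusted p = 2.64e-09) and, with offsets, 0.19 ± 0.02 (edgeR adjusted p = 1.67e-06), a rise under both. A pseudogene carries its name, so reads of near-identical sequence may be split in a way that the sources do not record.

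PSMB5, PSMB6 and PSMB7 carry the protease sites of the constitutive core particle. PSMB5 (chr14:23016543-23035230), which has the chymotrypsin-like activity and is the main target of proteasome inhibitors, was measured at 461, 483 and 468 CPM in C1s-CM and 417, 399.6 and 378 CPM in control CM. PSMB6 (chr17:4796144-4798503), with the caspase-like site, was at 443, 478 and 463 CPM against 399, 381 and 378 CPM, and PSMB7 (chr9:124353466-124415444), with the trypsin-like site, at 377, 412 and 398 CPM against 368, 344 and 350.2 CPM. In none of the 3 did the groups overlap. All 3 rose, PSMB7 the least, with log2 fold changes of 0.24 ± 0.03, 0.26 ± 0.03 and 0.16 ± 0.03. With offsets the changes were smaller. PSMB5 at 0.094 ± 0.03 and PSMB6 at 0.079 ± 0.02 were still called (edgeR adjusted p = 0.0113 and 0.018). PSMB7 at 0.063 ± 0.03 missed the threshold (edgeR adjusted p = 0.0833). With the table totals as the only scaling PSMB5 (0.12) and PSMB6 (0.13) were called. PSMB7 (0.035) was not called there (edgeR adjusted p = 0.314).

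The inducible subunits PSMB9 and PSMB10 replace PSMB6 and PSMB7 in the immunoproteasome. PSMB9 (chr6:32844136-32859585) was at 80.8, 87.2 and 79.9 CPM in C1s-CM and 74.7, 73.6 and 72.2 CPM in control CM, and PSMB10 (chr16:67934502-67937087), the least abundant core subunit, at 14.9, 16.7 and 16.9 CPM against 11.7, 12.6 and 13.5 CPM. Both rose, by 0.17 ± 0.05 and 0.36 ± 0.10, without overlap between the groups, and neither was called with offsets, where PSMB9 stood at -0.021 ± 0.04 and PSMB10 at 0.069 ± 0.10 (edgeR adjusted p = 0.777 and 0.657). For PSMB9 the offset value depends on the transcript taken to represent the gene: with the longest transcript it was 0.21 and called higher. Per kilobase of transcript, PSMB9 stood at 0.195 ± 0.00610 of PSMB6 in C1s-CM and at 0.207 ± 0.00319 in control CM (SD, n = 3 each), and PSMB10 at 0.0329 ± 0.00115 of PSMB7 against 0.0287 ± 0.00284. The groups of 3 did not overlap in either ratio, and the ratios moved in opposite directions. GC content was 56.1% for PSMB9 and 54.9% for PSMB6, and 60.1% for PSMB10 and 49.9% for PSMB7. The ratios were not computed with offsets. With offsets the changes were 0.069 for PSMB10 and 0.063 for PSMB7, and -0.021 for PSMB9 and 0.079 for PSMB6. PSMB9 overlaps PSMB8 and TAP1 on the opposite strand, and without known use of strand their reads cannot be told apart.

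The remaining beta subunits are structural. PSMB4 (chr1:151399534-151401944) was at 602, 625 and 636 CPM in C1s-CM and 533, 533 and 528 CPM in control CM, a rise of 0.22 ± 0.03 that was 0.073 ± 0.02 with offsets and still called (edgeR adjusted p = 0.0256). PSMB2 (chr1:35599544-35641844) was at 215, 221 and 229 CPM against 206, 205 and 203 CPM. It had the largest change of the core particle with offsets, 0.27 ± 0.03 (edgeR adjusted p = 1.95e-07), although its change under TMM was 0.11 ± 0.03. PSMB1 (chr6:170535117-170553341) was at 179, 186 and 188 CPM against 181, 174 and 165 CPM and was the core subunit whose groups overlapped, with 0.086 ± 0.04 under TMM (edgeR adjusted p = 0.0267) and 0.050 ± 0.03 with offsets, not called. With the longest transcript (0.31) and with GC content alone (0.13) PSMB1 was called higher. The call of PSMB1 under TMM was lost with DESeq2 and without C1s-CM library 2, C1s-CM library 3 or control library 3. With the table totals as the only scaling, PSMB1 (-0.04) and PSMB2 (-0.01) lay on the other side of 0 and were not called.

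**Figure D1:**
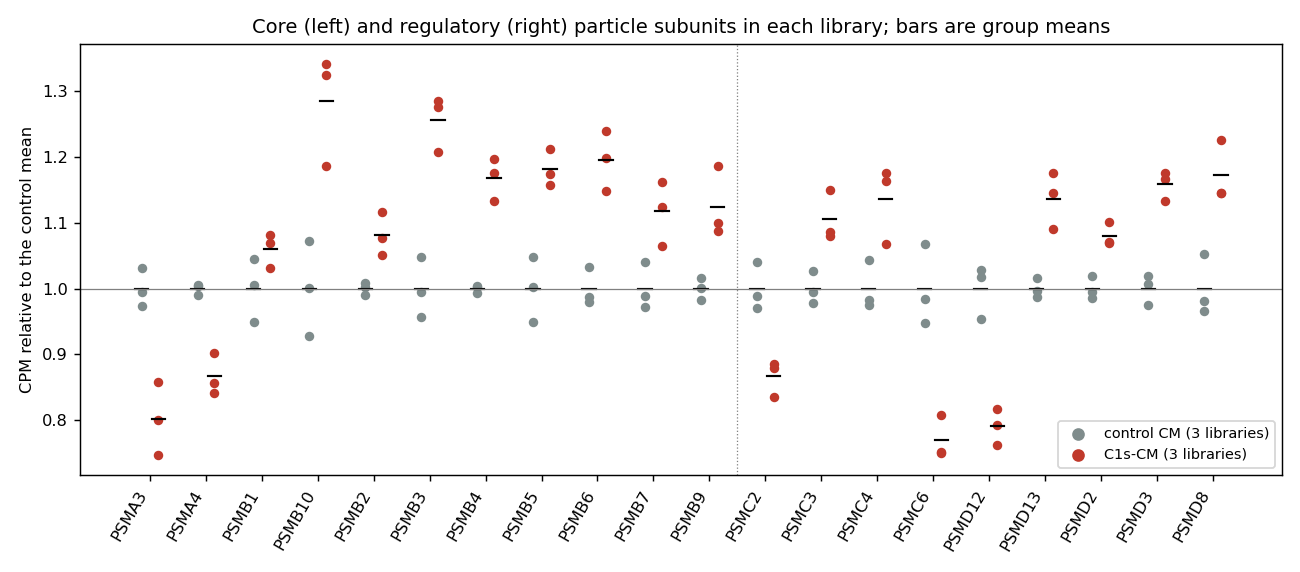
Each point is 1 library's CPM (TMM scaling) divided by the mean of the 3 control libraries, for the 11 core particle subunits (left of the dotted line) and the 9 regulatory particle subunits (right), and bars are group means. The C1s-CM points lie above the control points for the beta subunits except PSMB1, where the groups overlap, and below them for PSMA3, PSMA4, PSMC2, PSMC6 and PSMD12.

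Both alpha subunits went the other way under TMM. PSMA3 (chr14:58244831-58272012) was at 42.8, 49.2 and 45.9 CPM in C1s-CM and 59.2, 55.8 and 57.1 CPM in control CM, and PSMA4 (chr15:78540405-78552419) at 92.6, 94.4 and 99.3 CPM against 111, 111 and 109 CPM. Both fell with no overlap between the groups, with log2 fold changes of -0.32 ± 0.06 and -0.21 ± 0.04. With offsets PSMA3 was at -0.081 ± 0.05 and not called, and PSMA4 turned to 0.20 ± 0.04 and was called higher (edgeR adjusted p = 0.000479). Their transcripts have GC contents of 40.7% and 42.1%, below those of the beta subunits, and the transcript taken for PSMA4 is 4411 bases long. PSMA3-AS1 (chr14:58265365-58298134), which overlaps PSMA3 on the opposite strand, was at 8.86, 11.4 and 8.96 CPM against 15.6, 13.7 and 15.5 CPM and fell by 0.61 ± 0.11 (with offsets -0.17, not called), and without known use of strand the reads of the pair cannot be told apart. The summed CPM of the alpha subunits with a row changed by -15.5% in C1s-CM, and that of the beta subunits was 17.4% higher. In each library the alpha sum over the beta sum was 0.0430, 0.0431 and 0.0440 in C1s-CM and 0.0592, 0.0603 and 0.0614 in control CM. These sums and this ratio were not computed with offsets. With offsets the median log2 fold change was 0.060 for the 2 alpha subunits and 0.073 for the 9 beta subunits. Of them 1 and 5 were called higher and none lower.

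The 9 regulatory particle subunits with a row were split in the same manner. Of them 6 were higher and 3 lower, with a median log2 fold change of 0.14. Under TMM 50.9% of the whole table was called higher and 48.5% lower. With offsets 2 of the 9 were called higher, 1 lower and 6 not at all, where 14.5% and 11.6% of the table were called higher and lower. The class median with offsets was -0.0024, the same as over the whole table. Among the ATPases that unfold substrates, PSMC3 (chr11:47418769-47426473) was at 605, 644 and 609 CPM in C1s-CM and 575, 557 and 548 CPM in control CM, and PSMC4 (chr19:39971005-39981441) at 168, 185 and 183 CPM against 164, 153 and 155 CPM. PSMC2 (chr7:103344254-103369395) was at 76.4, 76.8 and 72.5 CPM against 90.4, 85.9 and 84.3 CPM. The first pair rose, by 0.14 ± 0.03 and 0.18 ± 0.04, and PSMC2 fell by 0.21 ± 0.05. PSMC6 (chr14:52707172-52728587), at 35.8, 38.5 and 35.7 CPM against 45.1, 46.9 and 50.8 CPM, fell by 0.38 ± 0.06, the most of the class. With offsets PSMC2 and PSMC6 lay above PSMC3 and PSMC4: PSMC2 was called higher at 0.26 ± 0.05 (edgeR adjusted p = 0.000205), PSMC3 was called lower at -0.070 ± 0.02 (edgeR adjusted p = 0.0396), and PSMC4 at -0.012 ± 0.04 and PSMC6 at 0.11 ± 0.06 were not called. The call of PSMC3 with offsets was lost when any library other than C1s-CM library 2 was left out.

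Of the subunits without ATPase activity, PSMD2 (chr3:184298709-184309054), a scaffold that docks ubiquitin receptors and shuttles, was the most abundant in CPM, at 789.5, 791 and 814 CPM in C1s-CM and 753, 735 and 728 CPM in control CM. PSMD3 (chr17:39980797-39997960), a lid subunit, was at 300.3, 303 and 292 CPM against 259, 251 and 262 CPM, and PSMD8 (chr19:38374536-38383824), also of the lid, at 424, 454 and 424 CPM against 389.9, 363 and 358 CPM. These 3 and PSMD13 (chr11:236546-252984), a further lid subunit, rose by 0.11 to 0.23 with no overlap between the groups, and with offsets they lay between -0.024 (PSMD2) and 0.063 (PSMD13), none called. PSMD2 was called lower with the longest transcript (-0.087) and with GC content alone (-0.072), and PSMD13 was called higher with the longest transcript (0.099). PSMD2 changed sign to -0.01 with the table totals as the only scaling. PSMD12 (chr17:67337916-67366627), a lid subunit as well, was at 48.7, 50.3 and 46.9 CPM against 62.5, 63.2 and 58.6 CPM. It fell by 0.34 ± 0.05 under TMM and was called higher, at 0.20 ± 0.05, with offsets (edgeR adjusted p = 0.0072).

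Proximal promoters were read for all members with a RefSeq window, whatever their direction. RefSeq (GRCh38.p14) gave 103 windows for 75 of the 96 members, each from 250 bases before to 50 after an annotated start, and 8 short motifs were searched on both strands. The core of the antioxidant response element, TGACNNNGC, through which stress-responsive factors are known to raise proteasome genes, occurred in 21 of 103 member windows (20.4%), and in 13.3% of all 35116 windows of the same length. By class it was found in 3 of 11 core particle windows, 3 of 10 regulatory particle windows, 4 of 6 windows of activators, inhibitors and chaperones, 4 of 20 of conjugating enzymes, 2 of 11 of cullins, 2 of 19 of F-box proteins and 2 of 25 of deubiquitinases, so that the latter 2 classes stood below the share of all windows. The 35116 windows come from 27305 genes and are not limited to the genes of the deposited table. Shares among the genes of that table are not reported here. The 250 bases before the start are shown, with matches in capitals, for core and regulatory subunits called higher with offsets that hold TGACNNNGC there. That choice was made after their values were seen.

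PSMA4: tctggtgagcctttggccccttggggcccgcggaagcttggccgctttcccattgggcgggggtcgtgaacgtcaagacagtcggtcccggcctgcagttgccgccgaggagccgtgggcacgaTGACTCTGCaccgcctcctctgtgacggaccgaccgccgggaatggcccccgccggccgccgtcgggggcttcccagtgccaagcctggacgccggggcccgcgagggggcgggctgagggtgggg

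PSMB3: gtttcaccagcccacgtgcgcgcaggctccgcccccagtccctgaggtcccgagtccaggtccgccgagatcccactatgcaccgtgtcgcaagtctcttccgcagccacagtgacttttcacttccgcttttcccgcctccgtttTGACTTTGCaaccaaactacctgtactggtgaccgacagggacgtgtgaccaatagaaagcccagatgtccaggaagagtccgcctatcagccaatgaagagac

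PSMD12: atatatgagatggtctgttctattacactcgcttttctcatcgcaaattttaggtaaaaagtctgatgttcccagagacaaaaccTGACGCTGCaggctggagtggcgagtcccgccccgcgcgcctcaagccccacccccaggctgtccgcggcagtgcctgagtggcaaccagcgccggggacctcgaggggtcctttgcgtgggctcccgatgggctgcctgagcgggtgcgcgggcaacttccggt

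These are chr15:78540536-78540785 on the plus strand, chr17:38752491-38752740 on the plus strand and chr17:67366578-67366827 on the minus strand, and the capitals begin 126, 104 and 165 bases before the start. The matches read TGACTCTGC, TGACTTTGC and TGACGCTGC, while a full form, TGACTCAGC, which overlaps the searched core, was in none of the member windows and in 0.561% of all windows. Other motifs searched were the inverted CCAAT box ATTGG (34.0% of member windows, 34.6% of all), the ETS core CCGGAA (31.1% and 17.2%, with 7 of 10 windows of the regulatory particle, 6 of 11 of cullins, 1 of 11 of the core particle and 3 of 20 of conjugating enzymes), the nuclear respiratory factor element (10.7% and 5.78%), the cyclic AMP response element TGACGTCA (3.88% and 1.85%), the YY1 element AAGATGGC (7.77% and 2.89%) and the E2F element TTCCCGC (15.5% and 6.55%). The motif TGACNNNGC was also present at members that were lower or not called with offsets, such as PSME2, UBE2E3, PSMB9 and PSMD3. A match is a description of the letters and not a bound site.

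The activators, the inhibitor and the assembly chaperones did not move as 1 group, with 3 higher, 2 lower and 1 not called. PSME1 (chr14:24136158-24138967) and PSME2 (chr14:24143362-24147570) form the interferon-inducible activator ring that opens the core particle. PSME1 was at 536, 573 and 574 CPM in C1s-CM and 506, 503 and 496 CPM in control CM, and PSME2 at 283, 298 and 298 CPM against 282, 275 and 263 CPM. Both rose without overlap, by 0.16 ± 0.03 and 0.10 ± 0.03, but with offsets PSME1 was at -0.0033 ± 0.02, not called, and PSME2 was called lower at -0.15 ± 0.03 (edgeR adjusted p = 0.000294). With the longest transcript PSME2 was not called, and with the table totals as the only scaling it changed sign to -0.02. PSME2 overlaps RNF31 on the opposite strand and has 2 named pseudogenes.

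PSME4 (chr2:53864067-53970840), the large single-chain activator of the core particle, was at 61.9, 69.8 and 63.5 CPM in C1s-CM and 84.9, 81.5 and 86.2 CPM in control CM and fell by 0.37 ± 0.05. Per kilobase, PSME4 over PSME1 was 0.0164 ± 0.000798 in C1s-CM and 0.0238 ± 0.000851 in control CM (SD, n = 3 each), with no overlap. Their transcripts differ in GC content, 41.5% against 52.2%, and with offsets PSME4 stood at 0.097 ± 0.05 and was not called. PSMD5 (chr9:120815496-120842984), a chaperone of the ATPase ring, fell by 0.27 ± 0.06, from 53.1 ± 2.98 CPM in control CM to 43.9 ± 1.97 CPM in C1s-CM (SD, n = 3 each), and PSMG3 (chr7:1567330-1571005), a chaperone of the core particle, rose by 0.31 ± 0.05, from 52 ± 1.41 to 64.3 ± 1.28 CPM. Neither was called with offsets. PSMF1 (chr20:1113263-1189415), which binds the core particle and blocks it in the test tube, was at 187, 196 and 201 CPM against 189, 178 and 189 CPM. Its groups overlapped and it missed the threshold under TMM at 0.070 ± 0.04 (edgeR adjusted p = 0.0578), although it was called without C1s-CM library 1 or without control library 3, and with offsets it was called higher at 0.18 ± 0.03 (edgeR adjusted p = 0.000252).

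**Figure D2:**
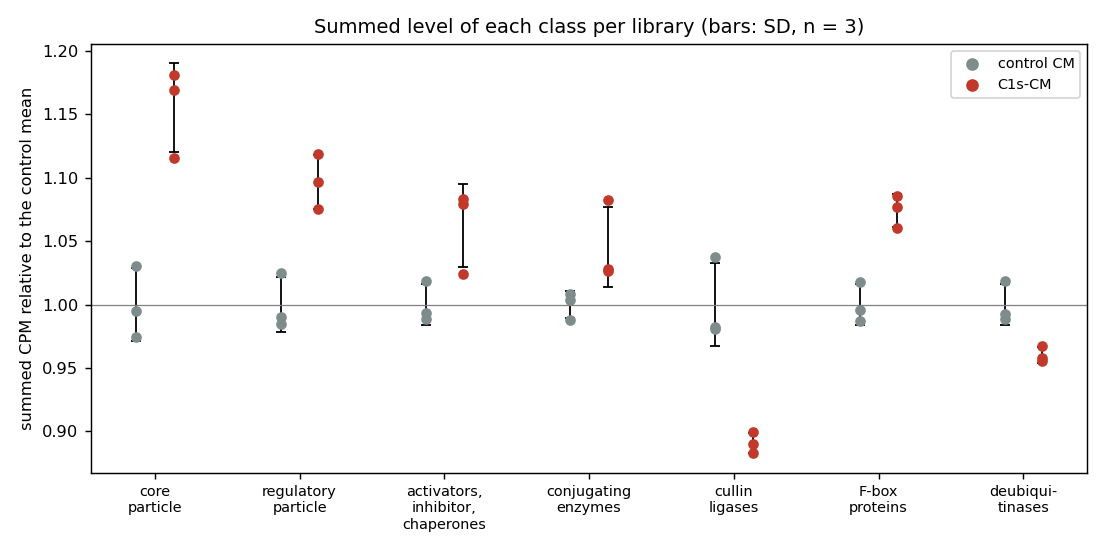
Each point is the summed CPM (TMM scaling) of 1 class of members in 1 library, divided by the mean of the 3 control libraries, with bars for the SD (n = 3). The C1s-CM points lie above the control points for the core particle, the regulatory particle, the activators, the conjugating enzymes and the F-box proteins, and below them for the cullins and the deubiquitinases.

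Summed over the 11 subunits with a row, and not over the whole particle, the core particle stood at 3286, 3478 and 3444 CPM in the C1s-CM libraries. In the control libraries this sum was 3036, 2930 and 2870.0 CPM, so that it was 15.5% higher in C1s-CM. The sum of the 9 regulatory particle subunits with a row was 2822 ± 55.1 CPM against 2573 ± 56.4 CPM (SD, n = 3 each), 9.68% higher. Neither pair of groups overlapped. The ratio of the core to the regulatory sum within a library, which no scaling factor can move, was 1.19, 1.21 and 1.22 in C1s-CM and 1.15, 1.15 and 1.13 in control CM. Offsets differ between genes and could move it, and neither the sums nor this ratio were computed with offsets. The sums of the other classes were 6.24% higher for activators, inhibitors and chaperones, 4.55% higher for conjugating enzymes and 7.42% higher for F-box proteins, while the cullin sum changed by -10.9% and the deubiquitinase sum by -3.98%. With the table totals as the only scaling, the sums of activators, conjugating enzymes and F-box proteins turned to the lower side. That scaling moves the median log2 fold change of the whole table from 0.08 to -0.05, and it leaves 20 members called higher and 52 lower, beside 26.1% and 49.2% of the table.

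Of the 19 conjugating enzymes, which carry activated ubiquitin or a ubiquitin-like protein to the ligase, 7 rose and 12 fell, with a median log2 fold change of -0.21. Under TMM 50.9% of the whole table was called higher and 48.5% lower. With offsets 5 of the 19 were called higher and 3 lower, where 14.5% and 11.6% of the table were, and the class median was 0.06. The most abundant per length were UBE2C and UBE2S, which build chains on the substrates of the anaphase-promoting complex in mitosis. UBE2C (chr20:45812576-45816957) was at 795, 813 and 782 CPM in C1s-CM and 723, 700.0 and 692 CPM in control CM, and UBE2S (chr19:55399745-55407777) at 1038, 846 and 900.2 CPM against 759.8, 836 and 750.3 CPM. Both rose, by 0.18 ± 0.03 and 0.25 ± 0.05. C1s-CM library 1 was the highest for UBE2S, and the gap between the lowest C1s-CM and the highest control library was small. With offsets UBE2C was at 0.067 ± 0.02 and called (edgeR adjusted p = 0.0377), UBE2S at 0.079 ± 0.05 and not. The ratio of UBE2S to UBE2C per kilobase overlapped between the groups. Both have named pseudogenes, 2 for UBE2S and 4 for UBE2C.

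UBE2M (chr19:58555712-58558960), the conjugating enzyme that hands NEDD8 to cullins, was at 354, 344 and 335 CPM in C1s-CM and 292, 292 and 294 CPM in control CM, a rise of 0.23 ± 0.03 (edgeR adjusted p = 1.29e-07). Its transcript has a GC content of 65.6%, and with offsets it was called lower, at -0.087 ± 0.03 (edgeR adjusted p = 0.0159). UBE2O (chr17:76389451-76453206), a large enzyme that acts as conjugating enzyme and ligase at once, rose by 0.19 ± 0.04, from 81.5 ± 3.37 CPM to 93 ± 1.17 CPM (SD, n = 3 each), and was at -0.015 with offsets, not called. UBE2L6, the conjugating enzyme for ISG15, rose by 0.12 with overlapping groups, turned to the lower side with the table totals as the only scaling, and was called lower with offsets at -0.11 ± 0.04. UBE2L3, which serves HECT and RING-between-RING ligases, was called higher under both, at 0.13 and 0.10.

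Among the enzymes that fell, UBE2E3 (chr2:180967248-181076585) was the only one called lower under both. It was at 91.3, 83.1 and 82.9 CPM in C1s-CM and 99.5, 103 and 101 CPM in control CM, without overlap, with -0.24 ± 0.05 under TMM and -0.26 ± 0.04 with offsets (edgeR adjusted p = 3.17e-05 and 0.0001). UBE2V2 (chr8:48008400-48064708), a catalytically inactive variant, fell most under TMM: 41.7, 46.6 and 42.5 CPM against 63.3, 63.7 and 64.2 CPM, -0.55 ± 0.06. It works as a dimer with UBE2N, and per kilobase UBE2V2 over UBE2N was 0.503, 0.557 and 0.496 in C1s-CM and 0.637, 0.658 and 0.609 in control CM, with no overlap. The transcripts of UBE2V2 and UBE2N differ in GC content, 34.3% against 41.7%. UBE2N fell by 0.26 ± 0.04 under TMM and was called higher with offsets at 0.19 ± 0.04 (edgeR adjusted p = 0.000814), while UBE2V2 was at 0.083 ± 0.06 and not called, and 4 pseudogenes named after UBE2V2 make its counts uncertain. UBE2K (chr4:39698044-39782792), which builds the chains that mark proteins for the proteasome, was at 67.7, 73 and 63.4 CPM against 88.7, 91.7 and 82.7 CPM, fell by 0.36 ± 0.05 and was called higher with offsets at 0.23 ± 0.05 (edgeR adjusted p = 0.00243). UBE2W (chr8:73780097-73878910), which adds ubiquitin to the amino terminus of proteins, likewise turned from -0.47 ± 0.07 to 0.20 ± 0.07. UBE2D3 (chr4:102794383-102868896), a general-purpose enzyme, fell by 0.21 ± 0.03 and was at 0.049 with offsets, not called, although it was called higher with the longest transcript (0.30) and with GC content alone (0.12). Its relatives UBE2D1 (-0.53) and UBE2D2 (-0.15) fell under TMM too. UBE2B (-0.29), UBE2H (-0.24), UBE2J1 (-0.29) and UBE2T (-0.18) complete the 12, none of them called with offsets.

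Of the 6 cullins 4 were lower and 2 higher, with a median log2 fold change of -0.43 that only the deubiquitinases undercut among the classes. CUL5 (chr11:108008733-108107776), the scaffold that pairs with SOCS-box receptors, had 234, 287 and 230 counts in C1s-CM and 404, 461 and 473 counts in control CM, or 17.1, 20.1 and 16.9 CPM against 30.6, 32.6 and 32.4 CPM. Every C1s-CM library lay below every control library by more than the range of either group, and the change was -0.82 ± 0.08 (edgeR adjusted p = 4.53e-09). CUL4B (chrX:120524609-120575794), scaffold of the ligases that read their substrates through DDB1, was at 89, 87.8 and 90.7 CPM against 119, 118 and 129 CPM, -0.45 ± 0.04. CUL3 (chr2:224470150-224585397), which binds BTB-domain receptors, was at 45.8, 42.8 and 45.8 CPM against 57.4, 61.5 and 65.1 CPM, -0.45 ± 0.06, and CUL2 (chr10:35008551-35090642), the scaffold used by the VHL protein, at 19.9, 19.9 and 21 CPM against 24.1, 27.5 and 28.6 CPM, -0.40 ± 0.08. The atypical large cullins went up: CUL7 (chr6:43037617-43053945) was at 155, 158 and 155 CPM against 137, 134 and 139 CPM, 0.19 ± 0.03, and CUL9 (chr6:43182175-43224587) at 37.9, 39.6 and 42.8 CPM against 37.1, 33.1 and 35 CPM, 0.20 ± 0.07, a call that was lost without C1s-CM library 3. The 4 that fell have transcripts with less than 50% GC and the 2 that rose more, 58.9% for CUL7 and 58.5% for CUL9. With offsets none of the 6 was called, where 26.1% of the table was. CUL5 came nearest at -0.22 ± 0.08 (edgeR adjusted p = 0.0516), followed by CUL3 at 0.12 ± 0.05 (edgeR adjusted p = 0.0936), and CUL5 was called lower with the longest transcript, with GC content alone or without C1s-CM library 2.

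F-box proteins spread the most, with 10 higher, 9 lower and log2 fold changes from -0.88 to 0.51. The counts stand near the whole table, of which 50.9% was called higher and 48.5% lower. FBXW5 (chr9:136940435-136944696), a substrate receptor and the most abundant of the class per length, was at 227, 208 and 216 CPM in C1s-CM and 167, 172 and 159.5 CPM in control CM. It rose by 0.38 ± 0.04 and remained called with offsets at 0.091 ± 0.03 (edgeR adjusted p = 0.0343). FBXO44 (chr1:11654375-11663327) was at 58.2, 57.2 and 60.3 CPM against 43.4, 46.1 and 41.1 CPM, with no overlap, and was higher under both, at 0.43 ± 0.06 and 0.23 ± 0.06 (edgeR adjusted p = 3.92e-07 and 0.0028). FBXO6 (chr1:11664124-11674354), its neighbour on chromosome 1, which recognises glycoproteins marked for degradation, had the largest rise of all members, 0.51 ± 0.13, at 8.86, 10.9 and 10.1 CPM against 6.75, 7.29 and 6.92 CPM, but was not called with offsets (0.27 ± 0.12, edgeR adjusted p = 0.115). FBXO2, which recognises glycoproteins too, overlaps FBXO44 on the opposite strand and rose by 0.31 under TMM (with offsets -0.0086, not called), and without known use of strand the reads of this pair cannot be told apart.

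FBXL18 (chr7:5431335-5513798) and FBXW9 (chr19:12688053-12696643) rose by 0.37 ± 0.08 and 0.39 ± 0.06, and neither was called with offsets. The other members that rose under TMM were FBXL15, FBXL19, FBXL6 and FBXO41, by 0.18 to 0.33, and the groups of FBXL15 overlapped. With offsets these 4 lay between -0.10 (FBXL6) and 0.085 (FBXO41), none called. On the lower side, FBXO30 (chr6:145793502-145814753) was the least abundant member, with 50, 47 and 37 counts in C1s-CM and 62, 86 and 102 counts in control CM. It had the largest fall of all members under TMM, -0.88 ± 0.18, and the largest standard error, and with offsets it was at -0.20 ± 0.18 and not called (edgeR adjusted p = 0.434). FBXO3 (chr11:33740939-33774543) fell by 0.56 ± 0.08, from 25.1 ± 1.25 CPM to 17 ± 0.957 CPM (SD, n = 3 each). With offsets it stayed below 0 at -0.15 ± 0.08 and was not called (edgeR adjusted p = 0.21). FBXO45 (chr3:196568611-196589059) fell by 0.41 ± 0.08 and was at 0.0075 with offsets. FBXW2 (chr9:120751978-120793412), at 60.9, 65.1 and 68.5 CPM against 79, 75.5 and 82 CPM, turned from -0.28 ± 0.05 to 0.17 ± 0.05 and was called higher with offsets (edgeR adjusted p = 0.0131). FBXO34 (-0.26), FBXL20 (-0.30) and FBXL4 (-0.76) fell as well and were not called with offsets. FBXO5, an inhibitor of the anaphase-promoting complex, fell by 0.36 under TMM and was at 0.080 with offsets, not called.

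The deubiquitinases had the lowest median of the classes, -0.46, with 19 of 25 lower and 6 higher. Under TMM 48.5% of the whole table was called lower and 50.9% higher. With offsets 3 of the 25 were called higher and 3 lower, and the class median was -0.02. These are 12% each, near the 14.5% and 11.6% of the table. USP16 (chr21:29024629-29054488), which removes ubiquitin from a histone, had 128, 159 and 135 counts in C1s-CM and 230, 251 and 284 counts in control CM. Every C1s-CM count lay below the lowest control count by more than the range within either group, and the enzyme was lower under both, at -0.84 ± 0.10 and -0.35 ± 0.10 (edgeR adjusted p = 9.2e-08 and 0.0132). USP1 (chr1:62436297-62451804), which deubiquitinates PCNA and the Fanconi protein FANCD2, was at 67.1, 62 and 65.5 CPM against 95.3, 98.4 and 96.9 CPM and was lower under both, at -0.58 ± 0.05 and -0.14 ± 0.04 (edgeR adjusted p = 1.21e-10 and 0.0189). USP48 was the third enzyme lower under both, at -0.42 ± 0.05 and -0.18 ± 0.05. A further 11 that fell under TMM, USP7, USP8, USP12, USP24, USP25, USP32, USP33, USP34, USP37, USP38 and USP49, lay between -0.64 (USP38) and -0.22 (USP7), and none of these was called with offsets. Among them USP7 stabilises MDM2 and p53, USP8 works at endosomes, and the groups of USP32 overlapped.

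USP9X (chrX:41085635-41236579), a large X-linked enzyme that stabilises many substrates, had the smallest p-value of the members under TMM: 135, 141 and 139 CPM in C1s-CM against 187, 193 and 199 CPM in control CM, -0.48 ± 0.03 (edgeR adjusted p = 2.56e-11). With offsets it was at 0.034 ± 0.03 and not called (edgeR adjusted p = 0.469). USP53 (chr4:119212587-119295517) and USP47 (chr11:11841423-11959323) fell, at -0.76 ± 0.08 and -0.59 ± 0.07, and with offsets were at -0.18 ± 0.08 and -0.17 ± 0.06, not called. USP15 (chr12:62260338-62417431) fell by 0.42 ± 0.10 and was at 0.23 ± 0.09 with offsets, not called (edgeR adjusted p = 0.0728). USP14 (chr18:158383-214629) sits on the regulatory particle and trims chains there. It was at 45.8, 44.3 and 45.8 CPM in C1s-CM and 53.1, 53.9 and 54.9 CPM in control CM, a log2 fold change of -0.25 ± 0.05 with tight, separate groups. With offsets it was called higher at 0.30 ± 0.05 (edgeR adjusted p = 0.00012), the largest change with offsets among the members that were called higher. PSMC2, PSMD12 and USP14 thus all turned from lower to higher, with GC contents of 38.5%, 37.9% and 38.1%.

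USP5 (chr12:6852128-6866632), which disassembles free ubiquitin chains, was at 255, 262 and 252 CPM in C1s-CM and 213, 207 and 209 CPM in control CM, and USP11 (chrX:47232690-47248328), the most abundant USP per length, at 383, 384 and 389.9 CPM against 323, 315 and 318 CPM. Both rose without overlap, by 0.29 ± 0.03 and 0.27 ± 0.03, and stayed called with offsets at 0.094 ± 0.03 and 0.093 ± 0.02 (edgeR adjusted p = 0.0138 and 0.00597). With the longest transcript or with GC content alone 1 of the 3 deubiquitinases called higher with offsets, USP14, was left. USP19 (chr3:49108046-49120938), an enzyme of the endoplasmic reticulum membrane, and USP21 (chr1:161159450-161165723) rose by 0.22 ± 0.04 and 0.29 ± 0.06 and were not called with offsets. USP20 rose by 0.22 and USP22, a subunit of the SAGA complex, by 0.071, and USP22 turned to -0.05 with the table totals as the only scaling. With offsets USP20 was at -0.0022 and USP22 at -0.056, neither called, and USP22 was called lower with the longest transcript (-0.092) and with GC content alone (-0.10).

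**Figure D3:**
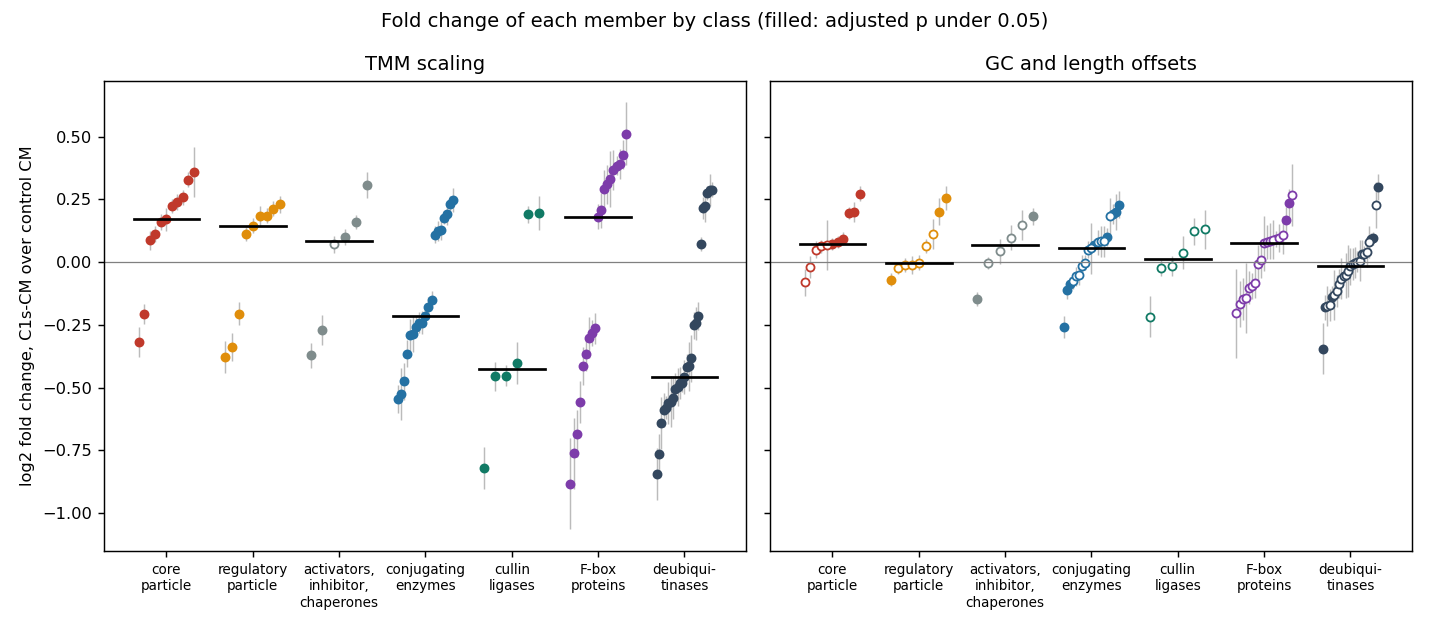
Each point is 1 member's log2 fold change of C1s-CM over control CM under TMM (left) and with GC and length offsets (right), sorted within its class, with its standard error. Filled points have an adjusted p under 0.05 and bars are class medians. Under TMM the medians range from -0.46 (deubiquitinases) to 0.18 (F-box proteins), and with offsets from -0.02 to 0.07.

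Set side by side, the classes lay under TMM largely in the order of their transcripts' GC content, with small exceptions. Median GC content was 57.7% for F-box proteins, 54.3% for the regulatory particle, 51.8% for the core particle, 49.8% for activators, inhibitors and chaperones, 46.5% for conjugating enzymes, 41.9% for deubiquitinases and 39.2% for cullins. The class medians of log2 fold change under TMM were, in the same order, 0.18, 0.14, 0.17, 0.09, -0.21, -0.46 and -0.43. Across the 96 members Spearman's rho between log2 fold change and GC content was 0.89 under TMM and -0.01 with offsets, and with transcript length it was -0.55 and -0.02. The offsets were fitted on this GC content and length, so values near 0 follow from how they were built. The points share the 6 libraries, and members are not independent of each other. The 4 members below 50% GC that were higher were PSMB1, PSMB2, PSMB7 and PSMF1, all of them proteasome genes, at GC contents of 48.3%, 46.4%, 49.9% and 47.5%.

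**Figure D4:**
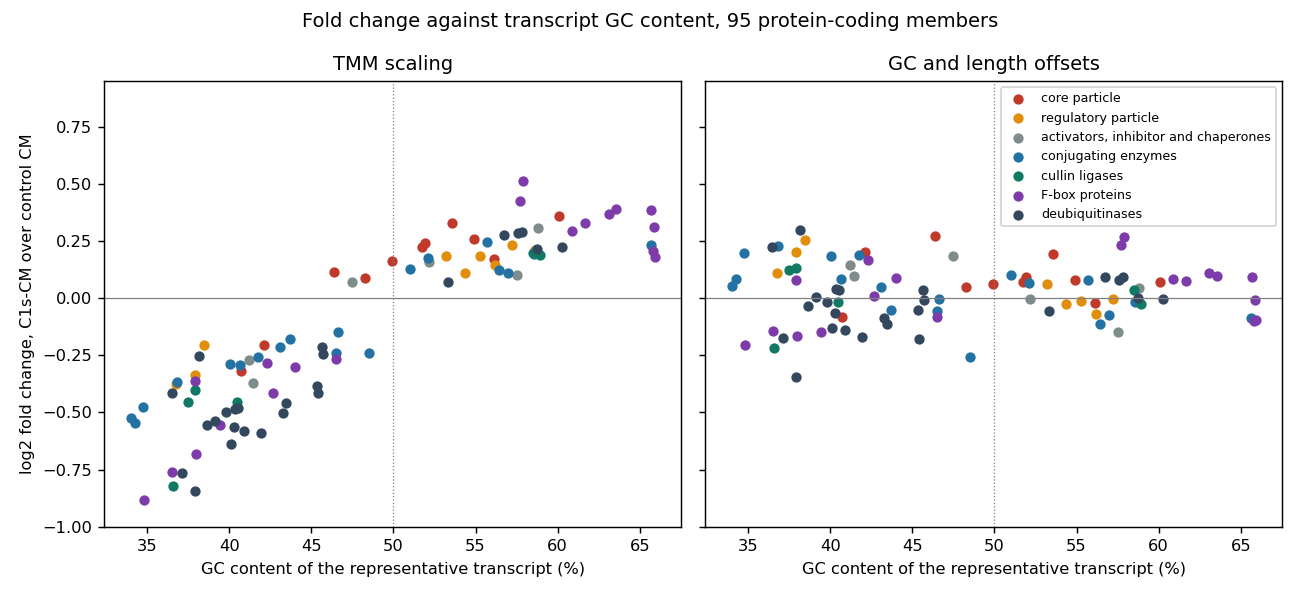
Log2 fold change of C1s-CM over control CM against the GC content of the representative transcript (in percent) for the 95 protein-coding members, under TMM (left) and with offsets (right), coloured by class, with a dotted line at 50%. Under TMM the points climb from the lower left to the upper right, and with offsets they lie around 0 at every GC content. The offsets were built to remove a trend with GC content.

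Of the 43 members called higher under TMM, 11 were also called higher with offsets, 28 were not called and 4 were called lower, these being PSMC3, PSME2, UBE2L6 and UBE2M. Of the 52 called lower, 4 were also called lower with offsets, 40 were not called and 8 were called higher, these being PSMA4, PSMC2, PSMD12, UBE2K, UBE2N, UBE2W, FBXW2 and USP14. With offsets built in 3 ways (representative transcript, longest transcript, GC content alone), 11 members were called higher each time and 5 lower each time. Of all genes, 9.12% and 7.47% were. The 11 were PSMA4, PSMB2, PSMB3, PSMB4, PSMC2, PSMD12, PSMF1, UBE2K, UBE2N, FBXO44 and USP14. The 5 were UBE2E3, UBE2M, USP1, USP16 and USP48. Proteasome subunits and PSMF1 made up 7 of the 11 and none of the 5, a description of genes and not a test. The 96 members include 11 core subunits, 9 regulatory subunits and 6 activators, inhibitors and chaperones. Other calls depended on the version. PSMB1 and UBE2D3 (higher) and PSMD2, CUL5 and USP22 (lower) were called with the longest transcript and with GC content alone but not with the representative transcript. PSMB6, UBE2C, UBE2L3, FBXW5, USP5 and USP11 were called higher with the representative transcript and with neither of the others. The longest transcript ended the calls of PSMB5 and PSME2, and GC content alone those of PSMC3, UBE2L6, UBE2W and FBXW2. Called with the longest transcript and no other version were PSMB9, PSMD13 and FBXO5 (higher) and UBE2D2 (lower), and with GC content alone PSMB7, PSMC6 and UBE2T (higher) and USP24, USP47 and USP53 (lower). The groups of values did not overlap in 91 of 96 members under TMM, where 97.2% of the table did not, and in 41 of 96 with offsets, where 38.8% of the table did not.

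When each library was left out in turn, 10 of the 20 members called higher with offsets were called in all 6 fits, and 2 of the 8 called lower. The matching share of the whole table is not reported here. The 10 were PSMA4, PSMB2, PSMB3, PSMC2, PSMF1, UBE2K, UBE2N, FBXO44, USP11 and USP14, and the 2 were PSME2 and UBE2E3. Without control library 3 the calls of PSMB4, PSMB5, PSMB6, PSMD12, UBE2M, USP16 and USP48 were lost. In that fit 13 members were called higher and 3 lower. The whole table lost calls too, from 742 higher and 593 lower with all libraries to 563 and 405. Leaving out C1s-CM library 2 ended the calls of PSMB5, PSMB6, PSMD12, USP1 and USP5, and leaving out C1s-CM library 3 those of PSMB4, PSMB6, UBE2M and FBXW2. PSMB4 was also lost without control library 1, FBXW2 and USP1 without control library 2, and USP16 without C1s-CM library 1. Calls of UBE2C, UBE2L3, UBE2L6 and FBXW5 were lost without at least 4 of the 6 libraries, and that of UBE2W without any 1 of them. None of the members named in this paragraph changed sign in these fits.

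Per kilobase of transcript, the classes stood at different levels in control CM. The median was 187 CPM per kilobase for the core particle, with PSMB3 (833) at the top and PSMB10 (10.3) at the bottom, and 119 for the regulatory particle, from PSMD12 (13.9) to PSMC3 (355). Activators, inhibitors and chaperones had a median of 40.3 and conjugating enzymes 40.0, the latter from UBE2W (3.66) to UBE2C (829). F-box proteins (8.63), deubiquitinases (8.33) and cullins (7.71) were lowest, with CUL4B (37.4), FBXW5 (73) and USP11 (95.6) as the highest of their classes. Levels of PSMA4 and others with a long representative transcript depend on that choice.

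**Figure D5:**
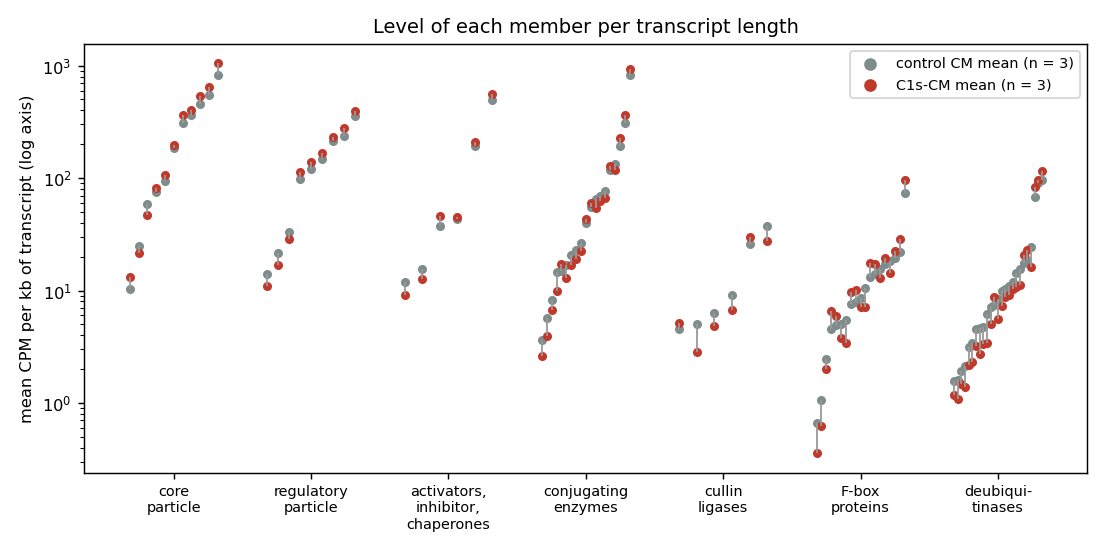
Mean CPM per kilobase of representative transcript on a log axis for each member, sorted within its class, in control CM and C1s-CM (n = 3 each), with a line joining the 2 means of a gene. PSMB3 and UBE2C have the highest levels, the ranges of the classes overlap, with PSMB10 and PSMD12 below CUL4B and FBXW5, and the distance between the 2 means is small beside the range within a class.

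Other genes of the pathway with a row moved in both directions. The counts below stand beside 50.9% of the whole table called higher and 48.5% lower under TMM. With offsets 14.5% and 11.6% of the table were. Of 12 ubiquitin and ubiquitin-like genes 9 had a row, 7 higher and 2 lower, with 6 called higher and 1 lower with offsets. FAU, a ubiquitin-like fusion with a ribosomal protein, rose by 0.41 ± 0.03, and ISG15, the interferon-induced modifier, by 0.34 ± 0.03. With offsets FAU (0.13) remained called and ISG15 (-0.02) did not. Of 10 activating enzymes 6 had a row, 1 higher and 5 lower. UBA6 fell by 0.62 ± 0.06 and UBA1, the main ubiquitin-activating enzyme, rose by 0.18 ± 0.03, and with offsets neither was called. Of 26 assembly factors, ubiquitin receptors and shuttles 8 had a row, 4 higher and 4 lower. They include ADRM1, a ubiquitin receptor of the proteasome, which rose by 0.32 ± 0.03 and was at 0.01 with offsets, and NFE2L2, a stress-responsive transcription factor, which was lower under both at -0.43 ± 0.05 and -0.22.

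Among 35 adaptors, RING partners and receptors of cullins, 15 had a row, 8 higher and 7 lower. ELOB, an adaptor of CUL2 and CUL5 ligases, rose by 0.43 ± 0.03 and was called with offsets at 0.12, and SKP2, an F-box protein that targets inhibitors of the cell cycle, fell by 0.27 ± 0.03 and was called higher with offsets at 0.16. In neddylation and the COP9 signalosome, which charge and discharge cullins, 12 of 20 had a row, 3 higher and 9 lower. GPS1, a subunit of the signalosome, rose by 0.35 ± 0.03, and CAND1, which exchanges cullin receptors, fell by 0.35 ± 0.04 and was called higher with offsets at 0.20. Deubiquitinases of other families had 18 of 30 with a row, 6 higher and 12 lower, and OTUB1, which had the smallest p-value of these, rose by 0.38 ± 0.03 and was called with offsets at 0.12. HECT and RING-between-RING ligases had 19 of 38 with a row, 5 higher and 14 lower, where ITCH fell by 0.39 ± 0.04 and was called higher with offsets at 0.14, and ANKIB1 fell by 0.61 ± 0.06 and was not called with offsets.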

How the data were processed

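Poly(A) RNA of 3 C1s-CM and 3 control CM libraries was sequenced from both fragment ends, per the labels' protocols. Per the submitters' processing notes FastQC 0.11.9, Trim Galore 0.6.7, HISAT2 2.2.1, DESeq2 1.40.2 and GRCh38 were used. No source used here names the read counter, its annotation or whether strand was used. The authors deposited raw counts per gene, not normalized, and, per the file headers, their log2 fold change and p-value columns. The deposited log2 fold change had the same sign as the one computed here in 96 of 96 members.

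Counts were tested with edgeR 4.0.16 (R 4.3.3): filterByExpr, TMM, two-sided quasi-likelihood test with no covariate, Benjamini-Hochberg adjustment over 5116 genes. TMM assumes that most genes do not change, which need not hold here, where each gene had passed a test. GENCODE release 29 (GRCh38) held 5113 of 5117 gene identifiers and gave positions and the length and GC content of 1 representative transcript per gene. Offsets were loess fits (span 0.3) of log2 CPM in each library on transcript GC content and length (log2), for 5112 genes. They are fitted on called genes and would also take out any biological difference related to GC. The TMM fit and the fit with offsets from the representative transcript were run on simulated data first, and the alternative fits were not.

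The members, their classes and the gene lists were chosen with earlier results of these data known. Genes described in full are all members of classes with up to 8 rows, the 4 with the smallest p in each direction of the others, up to 3 per class with the largest change with offsets, and all core and regulatory subunits, and other members are named after their values were seen. From the other pathway lists only genes among the 3 with the smallest p are named, apart from overlapping neighbours, and a few genes that the rules would name are not reported here. Alternatives were DESeq2 1.42.0, table totals as the only scaling, no filter or at least 50 counts in 3 libraries, the replicate number as a block, other offsets, and each library left out. A gene on the opposite strand overlaps 55 of the 96 members, and 15 have named pseudogenes, so their counts are uncertain.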

Additional observations from a re-analysis of the deposited data

How the results depend on the processing

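The table holds only genes that passed the authors' own test on these libraries, its totals are not the depth, and 3 libraries a group limit the precision. Removing the filter on low counts, or requiring 50 counts in 3 libraries, changed no call or direction among the results reported. The same-numbered libraries of the groups did not deviate together (correlations of deviations -0.133, -0.0888 and -0.0015), so the numbers were not taken to pair the samples, and with the replicate block 43 members were called higher and 52 lower, as without it. The longest transcript, the block with offsets, GC content alone and offsets with a library left out were compared with the values with offsets, and the latter 2 were added after the data were seen. DESeq2 kept the direction of each named member and lost the calls of PSMB1 and USP22. The cause of the differences listed here was not tested. With the table totals as the only scaling members called higher numbered 20 for all members, 5 for the core particle, 2 for the regulatory particle, 1 for activators, 2 for conjugating enzymes, 0 for cullin ligases and 3 for USPs. There the median log2 fold change was -0.34 for all members, 0.044 for the core particle, 0.019 for the regulatory particle, -0.040 for activators, -0.34 for conjugating enzymes, -0.55 for cullin ligases, 0.055 for F-box proteins and -0.58 for USPs. There the log2 ratio of summed CPM was 0.083 for the core particle, 0.0080 for the regulatory particle, -0.038 for activators, -0.061 for conjugating enzymes, -0.29 for cullin ligases, -0.022 for F-box proteins and -0.18 for USPs. There the log2 fold change was -0.039 for PSMB1, -0.013 for PSMB2, -0.014 for PSMD2, -0.025 for PSME2 and -0.055 for PSMF1. With offsets members called higher numbered 20 for all members, 2 for the regulatory particle, 1 for activators, 0 for cullin ligases, 3 for F-box proteins and 3 for USPs. There members called lower numbered 8 for all members, 0 for the core particle, 1 for the regulatory particle, 1 for activators, 3 for conjugating enzymes, 0 for cullin ligases, 0 for F-box proteins and 3 for USPs. There the median log2 fold change was 0.034 for all members, 0.073 for the core particle, -0.0024 for the regulatory particle, 0.055 for conjugating enzymes, 0.011 for cullin ligases, 0.075 for F-box proteins and -0.017 for USPs. There the log2 fold change was 0.20 for PSMA4, -0.021 for PSMB9, 0.26 for PSMC2, -0.070 for PSMC3, -0.012 for PSMC4, 0.11 for PSMC6, 0.20 for PSMD12, -0.024 for PSMD2, -0.012 for PSMD3, -0.0024 for PSMD8, 0.15 for PSMD5, -0.0033 for PSME1, -0.15 for PSME2, 0.097 for PSME4, 0.049 for UBE2D3, 0.23 for UBE2K, -0.087 for UBE2M, -0.015 for UBE2O, 0.083 for UBE2V2, 0.20 for UBE2W, 0.13 for CUL2, 0.12 for CUL3, -0.024 for CUL7, 0.0075 for FBXO45, 0.17 for FBXW2, 0.30 for USP14, 0.23 for USP15 and 0.034 for USP9X. With DESeq2 the median log2 fold change was -0.22 for all members. With the longest transcript for the offsets members called higher numbered 1 for USPs. There members called lower numbered 2 for the regulatory particle, 0 for activators, 5 for conjugating enzymes and 1 for cullin ligases. There the median log2 fold change was 0.12 for the core particle, 0.053 for the regulatory particle and 0.026 for conjugating enzymes. There the log2 fold change was 0.0086 for PSMA3, 0.21 for PSMB9, 0.056 for PSMD3, 0.081 for CUL4B, 0.027 for FBXO3, -0.038 for FBXO45 and -0.0070 for USP19. With offsets on GC content alone members called higher numbered 1 for F-box proteins and 1 for USPs. There members called lower numbered 13 for all members, 1 for cullin ligases and 7 for USPs. There the median log2 fold change was 0.0052 for all members, 0.11 for the core particle and 0.0027 for F-box proteins. There the log2 fold change was 0.13 for PSMA3, 0.014 for PSMD8, 0.0042 for PSME1, 0.0061 for CUL4B, -0.038 for CUL9, -0.052 for FBXO45, -0.021 for USP19 and -0.026 for USP9X. With the replicate block and offsets together members called higher numbered 2 for conjugating enzymes. There members called lower numbered 0 for the regulatory particle. With each library left out in turn under TMM, counts called higher ranged from 1 to 2 for cullin ligases. Median log2 fold changes ranged from -0.47 to -0.38 for cullin ligases and from 0.14 to 0.20 for F-box proteins. With each library left out in turn and offsets in place, counts called higher ranged from 13 to 19 for members, from 3 to 7 for core particle, from 1 to 3 for regulatory particle, from 1 to 2 for activators, from 2 to 4 for conjugating enzymes and from 1 to 3 for F-box proteins. Counts called lower ranged from 3 to 8 for members, from 0 to 1 for regulatory particle, from 1 to 3 for conjugating enzymes, from 0 to 1 for cullin ligases and from 1 to 3 for USPs. Over the whole table the counts ranged from 563 to 714 higher and from 405 to 593 lower. Median log2 fold changes ranged from 0.014 to 0.033 for members, from 0.024 to 0.071 for conjugating enzymes, from 0.0081 to 0.087 for F-box proteins and from -0.048 to -0.0026 for USPs. The log2 fold change ranged from -0.046 to 0.0044 for PSMB9, from -0.032 to 0.025 for PSMC4, from -0.028 to 0.0067 for PSMD3, from -0.030 to 0.029 for PSMD8, from -0.016 to 0.012 for PSME1, from -0.032 to 0.013 for UBE2O, from -0.013 to 0.14 for UBE2S, from -0.0032 to 0.14 for UBE2V2, from -0.048 to 0.019 for CUL4B, from -0.012 to 0.082 for CUL9, from -0.027 to 0.029 for FBXO45 and from -0.018 to 0.017 for USP19.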
